A study of Mus musculus with 24 samples.

Results

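The forkhead factors *Foxo1*, *Foxo3* and *Foxo4*, the kinases *Akt1* and *Akt2*, and the modifying enzymes *Prmt1*, *Chuk* and *Sirt1* were followed in mouse *M. gastrocnemius* after 6 h of mild hypoxia. All non-control probes that the array files name after these genes were taken, which gave 16 probes of 8 genes among 55681 probes on the array. Male C57BL/6JOlaHsd mice, all without a transgene or gene deletion in their labels, had arrived at 10 weeks of age, received a low-fat diet (10% of energy from fat) for 3 weeks and then a high-fat diet (40% of energy from fat) for 6 weeks. Fasted mice were then kept for 6 h at 20.9% oxygen (Norm, n = 12) or at 12% oxygen (Hypox, n = 12), and the muscle was removed directly afterwards. Fasting and the high-fat diet were thus common to both groups. Each array held the Cy5-labelled RNA of 1 mouse and a Cy3-labelled reference pool of all samples, so that the log2 ratio (Cy5 over Cy3) sets the mouse against the pool. After normalization a ratio of 0 is the array's own trend at that signal intensity, which need not be the exact level of the pool. Whole muscle was used, and fewer cells of a type cannot be told apart from less RNA per cell.

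FOXO transcription factors switch on genes of fuel selection, stress resistance and protein breakdown, and in skeletal muscle they are best known from fasting and atrophy. Insulin acts through PI3K and AKT, and AKT phosphorylates FOXO proteins so that they leave the nucleus. Other enzymes act on the same proteins, since PRMT1 methylates arginines of FOXO1 within the sites that AKT recognises, the IκB kinase subunit encoded by *Chuk* belongs to a kinase family that phosphorylates FOXO3, and SIRT1 removes acetyl groups. The arrays measured mRNA and none of these protein modifications.

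The 24 arrays lay on 6 slides with 2 Norm and 2 Hypox arrays each. Slides are numbered here from the dimmest to the brightest in Cy5, and an array of slide 1 had a mean Cy5 signal of 58.3 to 102, against 645 to 1014 on slide 6. The mean Cy5 signal had a median of 341 in Norm and 368 in Hypox. All 10 markers of skeletal muscle fibres that were looked up exceeded the local background more than 2 times in Cy5.

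The probes differed in how well they measured their gene. A probe was tested where Cy5 exceeded 2 times its local background on average, and 11 probes of 7 genes met this. Both *Foxo3* probes failed it, at 1.14 and 1.30 times the background, and the scanner software called neither of them well above background on any of the 24 arrays. *Foxo3* therefore has no measured difference here. The other probes that failed were A_66_P135179 of *Akt2* (1.54 times the background) and A_55_P2113031 (1.19) and A_55_P2150901 (1.87) of *Foxo4*. Both the probe and the slide mattered for detection. *Akt1* A_55_P2066384 was well above background on all 24 arrays and the *Foxo3* probes on none, while the *Chuk* probe was well above background on 4 of 8 arrays of slides 1 and 2 and on 16 of 16 arrays of slides 3 to 6.

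The sequences of 3 probes within protein-coding sequence are shown, since the results for *Foxo1* and *Prmt1* turn on the first and second of them and the third is the *Akt2* probe that lies farthest from the transcript's end. They are given 5′ to 3′ in the sense of the mRNA, as the array files list them, with mm9 positions.
*Foxo1* A_51_P138044 (chr3:52150183-52150242, plus strand): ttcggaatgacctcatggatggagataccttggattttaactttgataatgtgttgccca
*Prmt1* A_51_P389531 (chr7:52234092-52234151, minus strand): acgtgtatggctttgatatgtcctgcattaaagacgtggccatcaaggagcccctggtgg
*Akt2* A_55_P2066523 (chr7:28418226-28418285, plus strand): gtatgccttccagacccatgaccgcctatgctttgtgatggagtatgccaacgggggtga

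Of the 11 tested member probes, 4 passed an unadjusted P-value of 0.05 by limma's moderated test, *Foxo1* A_51_P138044 and *Prmt1* A_51_P389531 with a higher and *Chuk* A_55_P2053077 and *Akt2* A_55_P2066518 with a lower ratio in Hypox. Among all 14503 tested probes, 13.8% passed, 7.41% with a higher and 6.41% with a lower ratio. After Benjamini-Hochberg adjustment 0.931% of all tested probes remained and 0 of the 11, the lowest adjusted P-value of a member being 0.149. The median difference of the 11 probes was 0.10 on the log2 scale, beside 0.02 over all tested probes. Probes of one gene are not independent, and 3 of the 4 had another tested probe of the same gene that did not pass. From these same arrays the study had reported *Foxo1* and *Prmt1* as upregulated and *Foxo4* and *Chuk* as downregulated. The member count is therefore not independent of those reports. The count was 2 with the signals as processed by Feature Extraction (the scanner software), 2 with the deposited values (limma), 1 with the Cy5 channel alone and 0 with median centring. The calls over all probes moved as well, to 1999 of 14503, 974 of 19360, 1333 of 14503 and 59 of 14503 under these 4 settings. With processed signals and with the deposited values (limma) the 2 included *Foxo4* A_55_P2113026, which is not among the 4. By the methods' t-test on the deposited values, *Chuk* (P = 0.0273) and *Prmt1* A_51_P389531 (P = 0.0406) passed. So did *Foxo4* A_55_P2113026 (P = 0.0269) and *Foxo1* A_52_P453884 (P = 0.0366), which are not among the 4. Over all probes 1042 of 19360 passed there. The count of member probes was also 2 without slide 4, without slide 5, or without any one of Norm replicates 1 and 3 and Hypox replicates 4 and 8. Without slide 4 the 2 were *Chuk* and *Sirt1*.

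**Figure D1:**
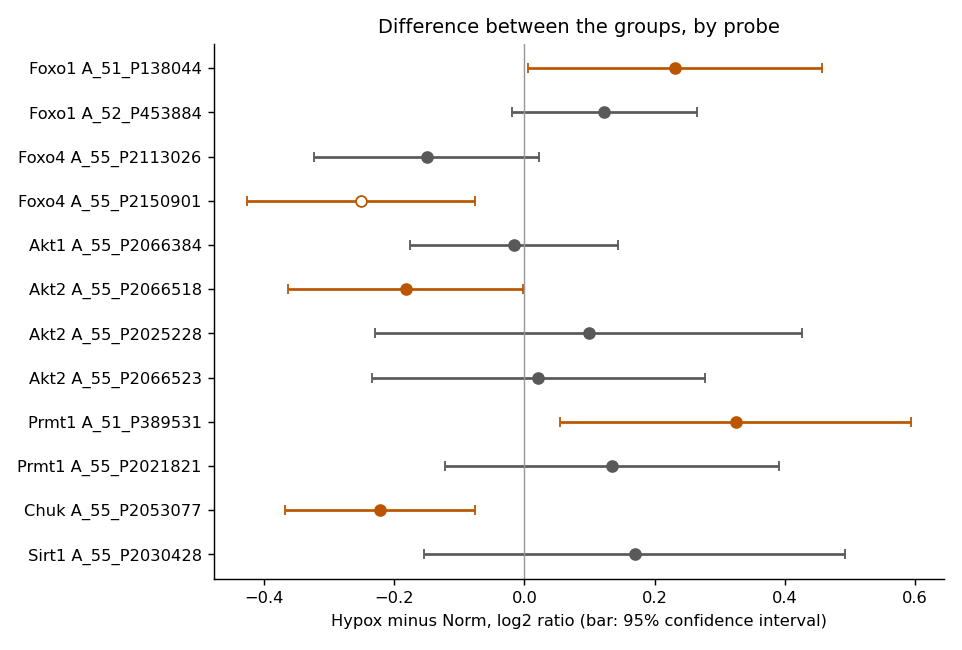
Difference between Hypox and Norm (log2 ratio of Cy5 over Cy3, x axis) for the 11 tested probes and 1 *Foxo4* probe under the brightness filter (open point), with 95% confidence intervals from limma. Orange marks an unadjusted P-value under 0.05, and the intervals of *Akt2* A_55_P2066518 and *Foxo1* A_51_P138044 end close to 0.

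*Foxo1* had 2 tested probes, which lie 2501 bases apart in the transcript, the first in the coding sequence printed above and the second, A_52_P453884 (chr3:52153289-52153348, mm9), in the 3′ untranslated region. For A_51_P138044 the log2 ratios ran from -0.59 to -0.11 in Norm (median -0.33) and from -0.77 to 0.55 in Hypox (median -0.08). Of the 12 Hypox values, 6 lay above every Norm value, yet the lowest value of all 24 arrays was also a Hypox array. *Foxo1* mRNA measured by this probe rose 1.17-fold (log2 difference 0.23 ± 0.11 (SE), 95% confidence interval 0.01 to 0.46, limma P = 0.0454, adjusted P = 0.348).

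For *Foxo1* A_52_P453884 the log2 ratios ran from -0.33 to 0.23 in Norm (median -0.14) and from -0.25 to 0.25 in Hypox (median -0.02). The groups overlapped almost fully, although 10 of 12 Hypox values lay above the Norm median. Its log2 difference was 0.12 (95% confidence interval -0.02 to 0.27, limma P = 0.0879, adjusted P = 0.441). This probe passed by the methods' t-test on the deposited values (0.19, P = 0.0366). In limma fits it passed without Norm replicate 8 (P = 0.0262) or Hypox replicate 11 (P = 0.0440). It also passed without slide 2 (0.16, P = 0.0464) or slide 3 (0.17, P = 0.0314), while without slide 4 it was 0.07 (P = 0.358). Within slides, the first probe was higher in Hypox on 5 of 6 slides and the second on 4 of 6. Slide 4 had the highest difference of both, at 0.71 and 0.39, and slide 2 a difference below 0 for both. Without slide 4 the difference of the first probe was 0.14 (P = 0.221). Its P-value rose to between 0.0575 and 0.0979, with differences of 0.17 to 0.23, without any one of Norm replicates 1, 3, 7, 9, 10 and 12 or Hypox replicates 1, 3, 4, 7, 8 and 9. Its call was lost with the Cy5 channel alone (0.19, P = 0.127), the deposited values (0.32, P = 0.0762 by limma), median centring (0.47, or 0.23 relative to the median of all probes, P = 0.151), the slide as a block (P = 0.0506) and the methods' t-test of these ratios (P = 0.0530). It was kept by limma with the processed signals (0.38, P = 0.00836), array weights (0.29, P = 0.00361) and the replicate block (P = 0.0426). The filter at 3 times background (P = 0.0470) and the fits without slide 2 (0.30, P = 0.0217) or slide 5 (0.25, P = 0.0317) kept it too. The mean of both *Foxo1* probes differed by 0.18 (P = 0.0305).

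*Foxo4* was close to the detection limit. Of its 3 probes, A_55_P2113026 just passed the brightness filter at 2.05 times the background and A_55_P2150901 just missed it at 1.87 times. These probes lie at chrX:98454974-98455033 and chrX:98454966-98455025 (mm9) and share 52 of their 60 bases, so they are not independent measures of the gene. Their correlation over the 24 arrays was nevertheless 0.31 (rank correlation 0.43) after slide means were removed, and on slide 1 their differences were 0.23 and -0.59. A_55_P2113026 was well above background on 7 Norm and 6 Hypox arrays, and A_55_P2150901 on 8 Norm and 4 Hypox arrays.

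For *Foxo4* A_55_P2113026 the log2 ratios ran from -0.23 to 0.32 in Norm (median 0.04) and from -0.45 to 0.45 in Hypox (median -0.13). The difference was -0.15 (95% confidence interval -0.32 to 0.02, limma P = 0.0862, adjusted P = 0.437). It was below 0 on 5 of 6 slides and 0.23 on slide 1, where this probe was well above background on no array. Without slide 1 it was -0.23 (P = 0.0078), and without slides 1 and 2 it was -0.26 (P = 0.0117), a choice made after these values were seen. With the processed signals, to which no offset is added, it was -0.58 (P = 0.0318), with the deposited values -0.37 (limma, P = 0.0257), and with array weights -0.21 (P = 0.00608). It also passed without Norm replicate 9 or without Hypox replicate 12, with differences of -0.18 and -0.20. It did not pass, and was smaller, with the Cy5 channel alone (-0.11, P = 0.340), without slide 3 (-0.10, P = 0.312) and with median centring (-0.03, or -0.27 relative to the median of all probes, P = 0.784). Which of these values lies nearest the true change was not tested.

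For *Foxo4* A_55_P2150901, fitted without the brightness filter, the log2 ratios ran from -0.14 to 0.87 in Norm (median 0.02) and from -0.34 to 0.07 in Hypox (median -0.14). Of the 12 Hypox values 6 lay below every Norm value, and all 12 Norm values lay above the Hypox median. On slides 1 and 2 this probe was well above background on 1 of 8 arrays. The difference was -0.25 (95% confidence interval -0.43 to -0.08, limma P = 0.00652, adjusted P = 0.376) and below 0 on 6 of 6 slides. It was lost with median centring (-0.08, P = 0.421) and with the deposited values (-0.47, P = 0.0627 by limma), and was -1.17 with the processed signals (P = 0.0391). Without the filter 3.93% of all 55681 probes had a lower ratio in Hypox at an unadjusted P-value under 0.05. The 4 other member probes under the filter, those of *Foxo3* included, had differences from -0.04 to 0.09, and none had a P-value under 0.05.

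**Figure D2:**
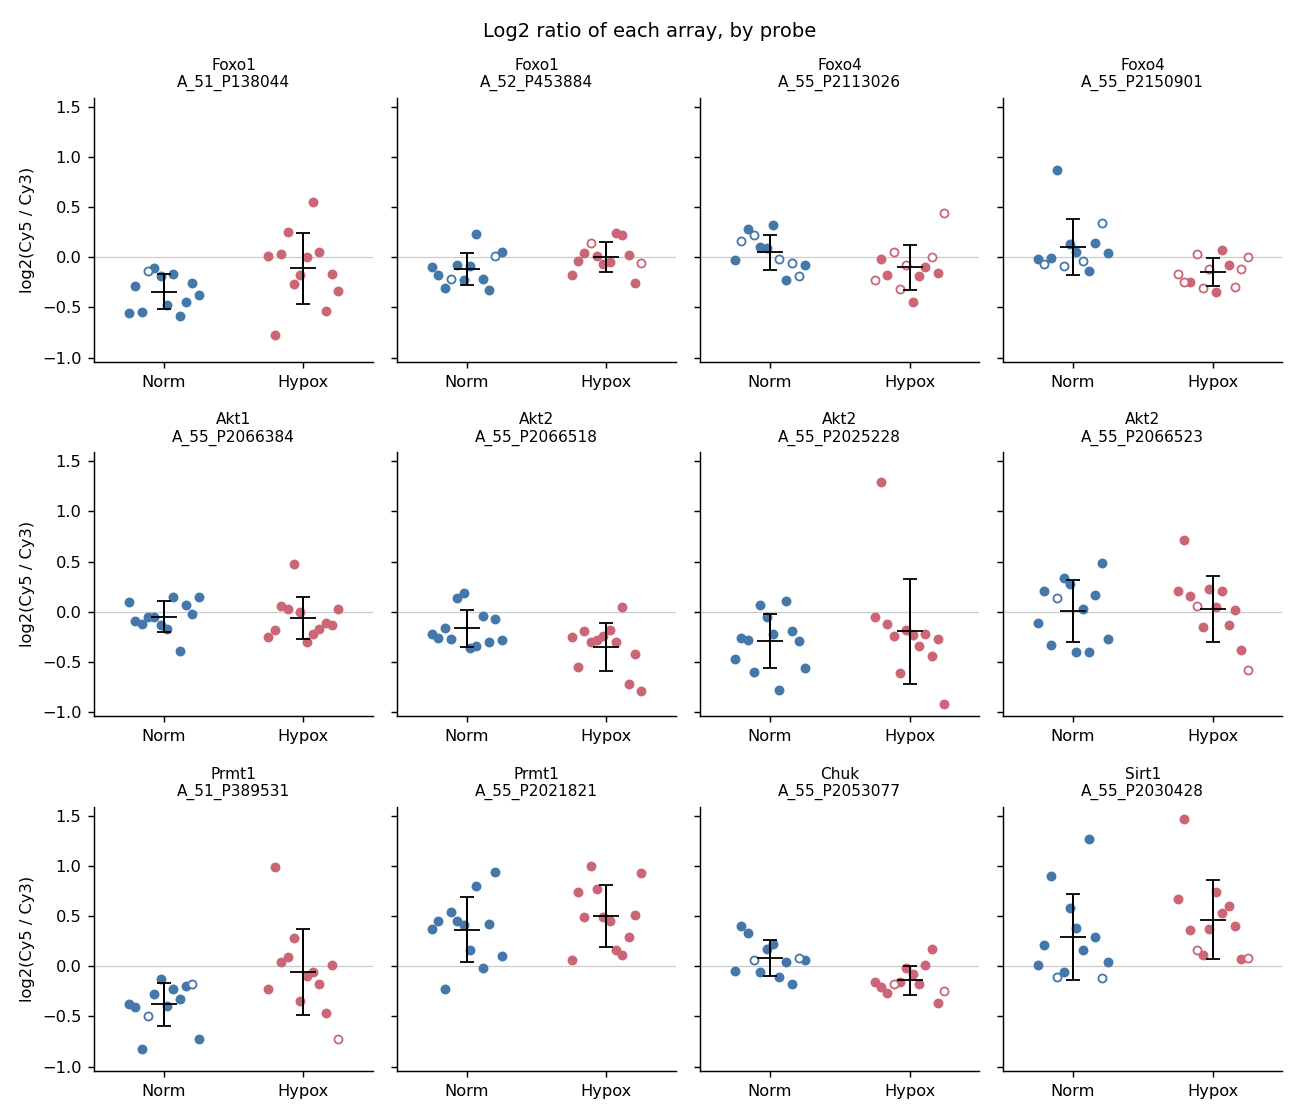
Log2 ratio of Cy5 over Cy3 of every array (points, Norm blue and Hypox red) for 12 probes, with the mean and SD of each group (n = 12, black). Open points are arrays on which the scanner software did not call the Cy5 signal well above background. Most groups overlap, while 6 of 12 Hypox values of *Foxo1* A_51_P138044 lie above all Norm values.

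The *Foxo1* and *Foxo4* ratios were set against each other within each array as a description, without a test, for the brightest probe of each gene. The *Foxo1* ratio minus the *Foxo4* ratio was -0.39 ± 0.23 (SD) in Norm and -0.01 ± 0.47 in Hypox. It was higher in Hypox on 4 of 6 slides, and exceeded the highest Norm value on 8 of 12 Hypox arrays. The *Foxo4* probe was well above background on 7 Norm and 6 Hypox arrays only, and on 0 of 8 arrays of slides 1 and 2. Over the 24 arrays, after slide means were removed, these 2 probes had a correlation of -0.39, which includes the difference between the groups.

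The kinases gave a less uniform picture. *Akt1*, which encodes the AKT kinase of most tissues, was measured well above background on all 24 arrays by A_55_P2066384 (chr12:113892079-113892138, mm9). Its log2 ratios ran from -0.39 to 0.15 in Norm (median -0.06) and from -0.30 to 0.48 in Hypox (median -0.12). The difference was -0.02 with a 95% confidence interval of -0.18 to 0.14 (limma P = 0.842, adjusted P = 0.949), so that larger changes than these bounds lie outside it. Its direction was positive with median centring (0.34) and with the deposited values (0.18), where the P-values were 0.440 and 0.463.

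*Akt2*, which encodes the AKT kinase most tied to glucose uptake in muscle, had 3 tested probes. A_55_P2066518 (chr7:28424405-28424464) and A_55_P2025228 (chr7:28424412-28424471) share 53 of 60 bases near the transcript's 3′ end. Each has 7 bases of its own, ctgctgg at the 5′ end of the first and agaccag at the 3′ end of the second, and both hold the polyadenylation signal AATAAA (at base 43 of the first and base 36 of the second, counted from the 5′ end of the probe). For A_55_P2066518 the log2 ratios ran from -0.36 to 0.19 in Norm (median -0.24) and from -0.79 to 0.05 in Hypox (median -0.29). The medians lay close together, and 4 Hypox arrays lay below every Norm array. The ratio fell by 0.18 on the log2 scale (95% confidence interval -0.36 to -0.002, limma P = 0.0482, adjusted P = 0.356) and was lower in Hypox on 6 of 6 slides.

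For *Akt2* A_55_P2025228 the log2 ratios ran from -0.78 to 0.11 in Norm (median -0.27) and from -0.92 to 1.29 in Hypox (median -0.23). The groups overlapped, apart from 1 Hypox array above and 1 below all Norm arrays. The difference was 0.10 (95% confidence interval -0.23 to 0.43, limma P = 0.539, adjusted P = 0.809). The value of 1.29 belonged to Hypox replicate 2, and without this array the difference was -0.04 (P = 0.739). Hypox replicate 2 had -0.55 by the overlapping probe. The 2 overlapping probes had a correlation of 0.16 (rank correlation 0.43) over the 24 arrays after slide means were removed.

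For *Akt2* A_55_P2066523, the coding probe printed above, the log2 ratios ran from -0.40 to 0.49 in Norm (median 0.08) and from -0.58 to 0.72 in Hypox (median 0.05). The difference was 0.02 (95% confidence interval -0.23 to 0.28, limma P = 0.867, adjusted P = 0.957). The mean of the 3 tested *Akt2* probes differed by -0.02 (P = 0.836). The fall by A_55_P2066518 did not hold under several other choices. Its difference was 0.11 with the deposited values and 0.27 with median centring, which is 0.03 relative to the median of all probes there, and its P-value lay between 0.0513 and 0.0993, with differences of -0.19 to -0.14, without any one of Norm replicates 1, 3, 5, 6, 9 and 11 or Hypox replicates 2, 4, 8, 10, 11 and 12. Of the 6 fits without 1 slide it passed in the one without slide 6, and P-values lay between 0.0620 and 0.137 in the other five.

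**Figure D3:**
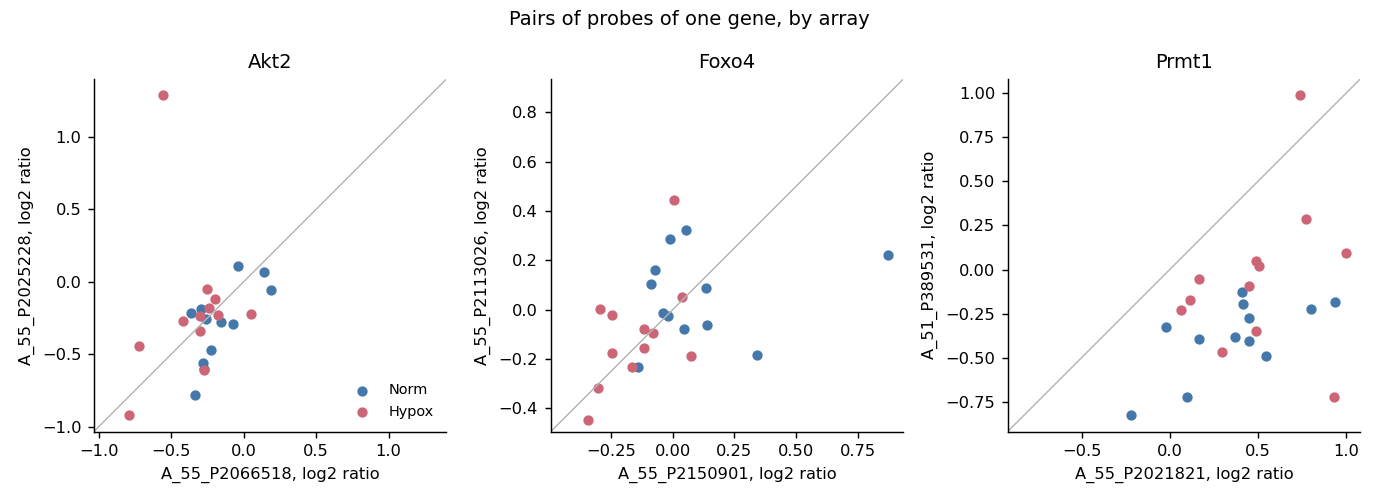
Log2 ratios of 2 probes of the same gene on each of the 24 arrays (Norm blue, Hypox red, the grey line marks equal ratios). The *Akt2* and *Foxo4* pairs share 53 and 52 of 60 bases, and 1 Hypox array stands far above the line for *Akt2*, at 1.29 by one probe and -0.55 by the other.

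Of the modifying enzymes, *Prmt1* passed the unadjusted P-value with a higher ratio in Hypox by the dimmer of its tested probes, but not by the brighter. *Chuk* passed with a lower ratio. *Prmt1* encodes the main enzyme for asymmetric arginine dimethylation. For its coding probe A_51_P389531 the log2 ratios ran from -0.83 to -0.13 in Norm (median -0.35) and from -0.72 to 0.99 in Hypox (median -0.07). Of the 12 Hypox values 7 lay above every Norm value, and none lay below the lowest Norm value. *Prmt1* rose 1.25-fold by this probe (log2 difference 0.32 ± 0.13 (SE), 95% confidence interval 0.05 to 0.59, limma P = 0.0203, adjusted P = 0.258) and was higher in Hypox on 5 of 6 slides.

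The mean of both tested *Prmt1* probes differed by 0.23 (P = 0.0409). *Prmt1* A_55_P2021821, 526 bases closer to the transcript's end (chr7:52232148-52232207, mm9), was well above background on all arrays. Its log2 ratios ran from -0.22 to 0.94 in Norm (median 0.41) and from 0.07 to 1.00 in Hypox (median 0.49), with nearly full overlap. The difference was 0.13 (95% confidence interval -0.12 to 0.39, limma P = 0.290, adjusted P = 0.663). Over the 24 arrays both *Prmt1* probes had a correlation of 0.71 (rank correlation 0.74) after slide means were removed. The difference by A_51_P389531 was highest on slides 5 (0.81) and 4 (0.69), and without these slides in turn it was 0.23 (P = 0.0565) and 0.25 (P = 0.0989). Without Hypox replicate 2, which held the value of 0.99, it was 0.23 (P = 0.0334). With the processed signals, median centring and the Cy5 channel alone it was 0.29, 0.53 and 0.29, with P-values of 0.230, 0.0982 and 0.144.

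*Chuk* had 1 probe, A_55_P2053077 (chr19:44147897-44147956, mm9), and the smallest P-value of the tested member probes. Its log2 ratios ran from -0.18 to 0.40 in Norm (median 0.07) and from -0.37 to 0.17 in Hypox (median -0.17). Of the 12 Norm values 11 lay above the Hypox median, and 4 Hypox values lay below every Norm value. *Chuk* fell by 0.22 on the log2 scale, to 0.858 of the Norm level (SE 0.07, 95% confidence interval -0.37 to -0.08, limma P = 0.0044, adjusted P = 0.149).

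The *Chuk* difference was below 0 on 6 of 6 slides, from -0.36 to -0.07. On slide 1, where it was -0.28, the probe was well above background on no array. The *Chuk* difference passed an unadjusted P-value of 0.05 without any one of the 24 arrays, with differences of -0.25 to -0.19, and without any one of the 6 slides. With the processed signals it was -0.46 (P = 0.0678) and with the Cy5 channel alone -0.34 (P = 0.00288). With the deposited values it was -0.21 (P = 0.0510 by limma, P = 0.0273 by the methods' t-test). Under median centring, where the median of all probes was shifted by 0.24, it was 0.03, which is -0.21 relative to that median.

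*Sirt1*, the NAD-dependent deacetylase, was measured by A_55_P2030428 (chr10:62781827-62781886, mm9) on 10 arrays of each group. Its log2 ratios ran from -0.12 to 1.27 in Norm (median 0.18) and from 0.07 to 1.47 in Hypox (median 0.39). The spread within each group was larger than the distance between them. The difference was 0.17 (95% confidence interval -0.15 to 0.49, limma P = 0.290, adjusted P = 0.663). It was above 0 on 5 of 6 slides and -0.76 on slide 4, without which it was 0.36 (P = 0.0195). Without Hypox replicate 2, which held the highest value, it was 0.08 (P = 0.575).

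**Figure D4:**
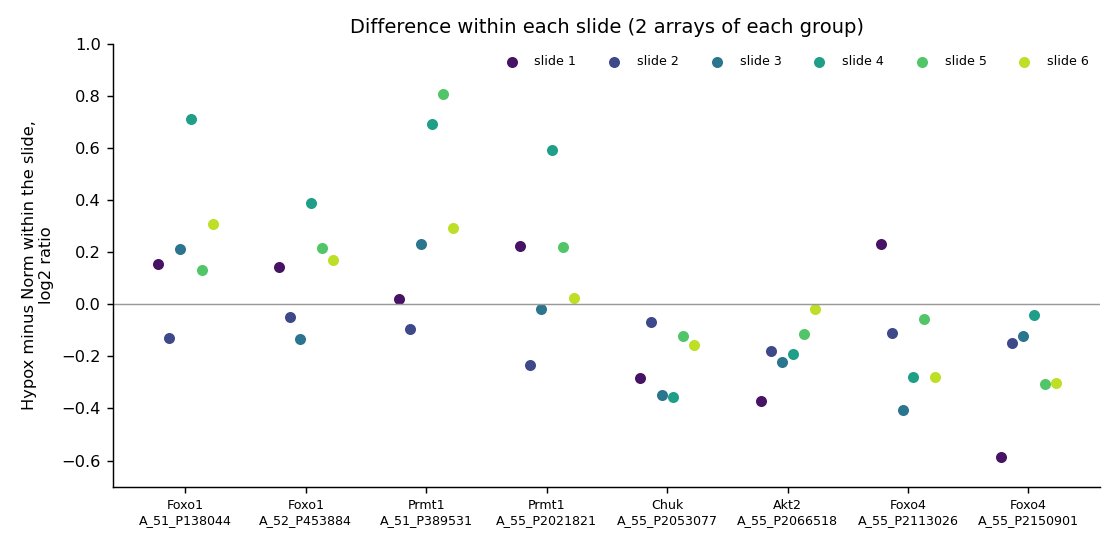
Hypox minus Norm within each slide (y axis, log2 ratio, each point the mean of 2 Hypox arrays minus the mean of 2 Norm arrays) for 8 probes. Slides run from 1 (dimmest, dark) to 6 (brightest, yellow), and *Chuk*, *Akt2* A_55_P2066518 and *Foxo4* A_55_P2150901 lie below 0 on all 6 slides. On slide 1 the *Chuk* probe was well above background on no array, and *Foxo4* A_55_P2150901 on Norm replicate 4 alone.

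Hypox replicate 2 held the highest Hypox value for 4 of the 11 tested probes and the lowest for 1. Without it, 3 of the 11 passed the unadjusted P-value of 0.05. Hypox replicate 12 held the lowest Hypox value for 4 and the highest for 1. Without replicate 12, *Akt2* A_55_P2066518 did not pass (limma P = 0.0993) and *Foxo4* A_55_P2113026 did (limma P = 0.0119). Correlations between the brightest probes of the 7 measured genes over the 24 arrays, with slide means removed, are given as a description and include the difference between the groups. They were highest for *Chuk* with *Foxo4* (0.54) and *Prmt1* with *Akt1* (0.48) and lowest for *Akt1* with *Sirt1* (-0.75) and *Prmt1* with *Chuk* (-0.57). *Foxo1* correlated negatively with *Chuk* (-0.50) and hardly at all with *Akt1* (0.02).

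Among 9222 other genes, those whose brightest probe followed each member most closely were listed by the same correlation. For *Foxo1* these were *Pmpca* (r = 0.84), which encodes a subunit of the mitochondrial processing peptidase, the complex I gene *Ndufs8* (0.80) and the ribosomal protein gene *Rpl18* (0.79). For *Chuk* they were *Cabp5* (0.90), *Cplx2* (0.88) and *Zfp931* (0.86), and for *Foxo4* *Ddx25* (0.86), *Sash1* (0.85) and *Zfp968-ps* (0.82). For *Akt1* they were *Mtss2* (0.93), *Sp140* (0.87) and *Pde4b* (0.87), and for *Akt2* they included *Speg* (0.90) and *Pja2* (0.90). *Prmt1* was most like *Bcap31* (0.85), *Poldip3* (0.83) and *Psap* (0.82), and *Sirt1* most like *Gm21953* (0.94), *Nck1* (0.93) and *Cln3* (0.92). The arrays share slides, a reference pool and a dye, and no chance level was set for the highest of so many correlations.

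The genes around the members were taken from 8 lists by role, in total 98 genes, of which 80 passed the brightness filter by their brightest probe. At an unadjusted P-value under 0.05, 6 rose and 6 fell. Over all 9223 named genes 7.03% rose and 4.92% fell, so these counts lay near the background. Some of the genes, *Sgk1*, *Trib3* and *Insr* among them, had been reported as regulated by the study from these arrays. The median difference was 0.05, beside 0.03 over all genes. The number of genes that passed was 7 with the Cy5 channel alone, 7 with the deposited values (limma) and 0 with median centring, settings under which fewer of all probes passed too, as given above.

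Upstream of AKT, 2 of 7 tested genes of the insulin receptor, its substrates and PI3K fell, and none rose. *Irs2*, an adaptor of the insulin receptor, had -0.27 ± 0.24 (SD) in Norm and -0.61 ± 0.19 in Hypox, a difference of -0.34 (limma P = 0.000735, adjusted P = 0.0634). *Insr*, the insulin receptor itself, differed by -0.20 (limma P = 0.0159, adjusted P = 0.237). Both were lower on 5 of 6 slides. None of the 3 tested mTORC2 subunits passed, with differences from 0.08 to 0.17.

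Of 11 tested genes that oppose AKT, *Trib3* alone passed, a pseudokinase known to bind AKT. Its log2 ratio was 0.18 ± 0.17 (SD) in Norm and 0.41 ± 0.22 in Hypox, and it rose by 0.23 on the log2 scale (limma P = 0.0117, adjusted P = 0.214), with a higher value in Hypox on 6 of 6 slides. The other 10 did not pass.

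Among 13 tested kinases other than AKT that act on FOXO proteins, 1 rose and 2 fell, and 2 of these were the only genes of the 8 lists past the adjusted P-value of 0.05. *Sgk1*, a kinase related to AKT that phosphorylates FOXO3, had 0.21 ± 0.26 (SD) in Norm and 0.67 ± 0.27 in Hypox. It rose by 0.46 (limma P = 0.000185, adjusted P = 0.0308), with a difference above 0 within each of the 6 slides. *Csnk1a1*, casein kinase 1 alpha, fell by 0.39 (limma P = 0.000146, adjusted P = 0.0292) and *Dyrk1a* fell by 0.33 (limma P = 0.00132, adjusted P = 0.0815).

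Around PRMT1, 1 of 6 tested genes passed, *Btg2*, whose product binds PRMT1. It rose by 0.19 (limma P = 0.0161, adjusted P = 0.237), also within each of the 6 slides. Of 12 tested sirtuins, acetyltransferases and deacetylases, *Sirt7* fell by 0.61 (limma P = 0.00107, adjusted P = 0.0739) and the acetyltransferase gene *Crebbp* fell by 0.28 (limma P = 0.00429, adjusted P = 0.148), each on 6 of 6 slides. None of the 10 tested genes of FOXO ubiquitination and nuclear transport passed, with differences from -0.08 to 0.21.

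Of 20 tested genes listed as FOXO targets 3 rose and 2 fell, with a median of 0.09. Over all named genes 7.03% rose and 4.92% fell. The list was not exhaustive, since *Depp1* and *Cdkn1a* were not on it and *Trib3* was placed with the genes that oppose AKT. The study counts all of these as FOXO targets. From these same arrays it had reported *Ddit4*, *Klf2* and *Gadd45a* as upregulated and *Insr* as downregulated. The counts of this list are therefore not independent of those reports. *Ddit4*, an inhibitor of mTORC1, had -0.58 ± 0.23 (SD) in Norm and -0.05 ± 0.51 in Hypox and rose by 0.53 (limma P = 0.00171, adjusted P = 0.0955). *Klf2* rose by 0.32 (limma P = 0.0167, adjusted P = 0.241) and *Gadd45a* rose by 0.25 (limma P = 0.0284, adjusted P = 0.292). The 2 that fell were *Irs2* and *Insr*, which are also in the list of insulin signalling. The atrophy ligases *Trim63* and *Fbxo32* had differences of 0.31 (P = 0.120) and 0.13 (P = 0.270), and *Pdk4*, which restrains glucose oxidation, had 0.08 (P = 0.595).

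Of these 12 genes, *Sgk1*, *Sirt7* and *Ddit4* also passed the unadjusted P-value with processed signals, with the deposited values and with Cy5 alone, and none of the 12 passed with median centring. With the deposited values the call was lost for *Irs2* (-0.20, P = 0.406), *Csnk1a1* (-0.25, P = 0.208), *Btg2* (0.10, P = 0.437), *Crebbp* (-0.08, P = 0.769) and *Gadd45a* (0.27, P = 0.0526). With the Cy5 channel alone it was lost for *Insr* (P = 0.120), *Trib3* (P = 0.168), *Dyrk1a* (P = 0.104), *Gadd45a* (P = 0.231) and *Klf2* (P = 0.0942), and with the processed signals for *Insr* (P = 0.257), *Trib3* (P = 0.212) and *Gadd45a* (P = 0.0983). Relative to the median of all probes under median centring, *Irs2* was -0.24, *Csnk1a1* -0.27 and *Crebbp* -0.12, and *Btg2* was at -0.002.

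**Figure D5:**
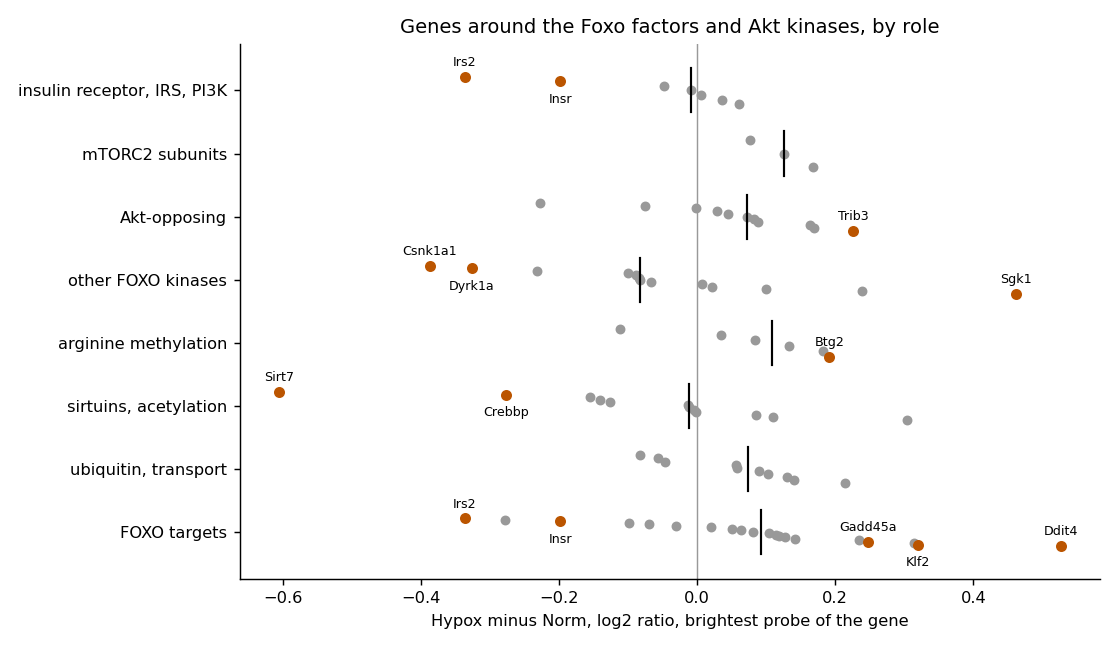
Hypox minus Norm (log2 ratio, x axis) of the brightest probe of each gene in 8 lists by role, with the list's median as a black bar. Named orange points passed an unadjusted P-value of 0.05, and *Sgk1* (0.46) and *Ddit4* (0.53) lie farthest to the right.

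Markers of other cell types in the muscle moved with the groups in part, and their part in the differences above was not tested. Over all 9223 named genes 7.03% rose and 4.92% fell at the same unadjusted P-value. Of 8 tested endothelial markers, *Cdh5* (0.38), *Cldn5* (0.30) and *Esam* (0.28) passed with higher ratios in Hypox. Differences of *Kdr* (-0.15), *Flt1* (-0.05) and *Tie1* (-0.004) had the other sign and did not pass. The mean ratio of the endothelial list per array was -0.35 to -0.08 (Norm) and -0.20 to -0.03 (Hypox). Of 5 tested adipose markers, *Cfd* (-0.56) and *Adipoq* (-0.33) passed with lower ratios, and the list means were -0.68 to 0.96 (Norm) and -0.72 to -0.12 (Hypox). Of 6 nerve markers 3 passed with lower ratios, *Pmp22* (-0.41) and *Prx* (-0.28) among them, with list means of -0.37 to 0.48 (Norm) and -0.58 to 0.18 (Hypox). None of 5 tested blood and immune markers passed, with list means of -0.47 to 0.01 (Norm) and -0.37 to 0.11 (Hypox). None of the 10 muscle fibre markers passed either, with list means of -0.23 to 1.86 (Norm) and -0.17 to 1.80 (Hypox). Of 6 lung markers 1 passed the brightness filter, *Sftpc*, with a difference of 0.81 and ratios of -1.02 ± 0.58 (SD) in Norm and -0.21 ± 1.06 in Hypox.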

How the data were processed

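The authors deposited, for each of the 24 arrays, the intensity of every spot in both dyes as written by Agilent Feature Extraction 10.7.3.1, and a series table of normalized log2 values, which correlated with log2 Cy5 at 0.967 to 0.999 and whose use of Cy3 is unknown. Per the methods, the study tested its own values with a t-test. Some Hypox samples carry dye names in their labels that differ from the rest, so the direction was taken from the sample descriptions (Cy5 over Cy3).

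Control spots were left out, 7260 flagged readings were set to missing, and 0 spots were saturated. Mean signals were corrected for local background with normexp (offset 50, which understates differences of dim probes), normalized by loess within arrays and averaged per probe. Probes with a mean Cy5 signal over 2 times the background and at most 4 arrays missing were fitted with limma (version 3.58.1, R 4.3.3), Hypox against Norm, without a block, and adjusted with Benjamini-Hochberg over 14503 probes. The brightest probe stood for its gene. Between 9.42% and 37.8% of an array's spots were well above background, which limits precision for dim genes. Probe positions and probe sequences are those of the array files (mm9), and symbols were updated with RefSeq (GRCm38.p6). Figures were drawn with Python 3.11.15 and matplotlib 3.10.9. The test was tested on simulated data.

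Members and lists were chosen with earlier results of these data known. Named are all member probes, up to 4 genes with the smallest P-value per list, and the 3 most correlated genes per member. Some genes that these rules or lists include are not reported here. P-values set the group difference against the spread between arrays. That spread holds differences between mice and, in fits without a block, between slides. Alternatives tried were other signals (processed, Cy5 only, deposited), median centring in place of loess, the t-test named in the methods, other filters, slide or replicate blocks, array weights, and fits without single arrays or slides.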

Additional observations from a re-analysis of the deposited data

How the results depend on the processing

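The count of 4 member probes became 2 with processed signals, 0 with median centring, 1 with the Cy5 channel alone, 2 with the deposited values (limma), 2 without slide 4 and 2 without slide 5, and 2 to 5 without single arrays. These were not always probes of the 4. They were *Foxo1* A_51_P138044 and *Foxo4* A_55_P2113026 with processed signals, and *Prmt1* A_51_P389531 and *Foxo4* A_55_P2113026 with the deposited values (limma). Without slide 4 they were *Chuk* and *Sirt1*. The 12 pathway genes became 0, 7 and 7 with median centring, Cy5 alone and the deposited values, and 11 to 16 without single arrays. No cause was tested.

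*Chuk* was -0.46 (processed signals), 0.029 (median centring) and -0.21 (deposited values, with a call by the methods' t-test and none by limma), and -0.25 to -0.19 without single arrays. *Foxo1* A_51_P138044 lost its call at 0.47 (median centring), 0.19 (Cy5 alone), 0.32 (deposited values, both tests), 0.23 (methods' t-test, slide block), and 0.25, 0.23, 0.14 and 0.22 without slides 1, 3, 4 and 6, and was 0.17 to 0.29 without single arrays. *Foxo1* A_52_P453884 gained a call at 0.19 (deposited values, methods' t-test) and at 0.16 and 0.17 without slides 2 and 3. It was 0.10 to 0.15 without single arrays. *Akt2* A_55_P2066518 was -0.13 (processed signals), 0.27 (median centring), -0.21 (Cy5 alone), 0.11 (deposited values, both tests), -0.18 (filter at 3 times background), -0.10 (array weights), -0.14, -0.18, -0.17, -0.18 and -0.20 without slides 1 to 5 and -0.14 without slides 1 and 2, and -0.22 to -0.14 without single arrays. *Akt2* A_55_P2025228 was -0.064 without slide 5 and -0.036 to 0.17 without single arrays, and A_55_P2066523 was -0.25 (processed signals), -0.13 (Cy5 alone), -0.018 (array weights), -0.052 without slide 4, -0.057 without slide 5 and -0.041 to 0.077 without single arrays. *Akt1* was 0.34 (median centring), 0.18 (deposited values, both tests), 0.0095 and 0.030 without slides 5 and 6, and -0.065 to 0.0054 without single arrays.

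*Foxo4* A_55_P2113026 passed at -0.58 (processed signals), -0.37 (deposited values, both tests), -0.21 (array weights), -0.23 without slide 1 and -0.26 without slides 1 and 2, and was -0.20 to -0.12 without single arrays. It was -0.11 (Cy5 alone), -0.10 without slide 3 and -0.034 (median centring), with no call. A_55_P2150901 lost its call at -0.08 (median centring) and -0.47 (deposited values, both tests). *Sirt1* passed at 0.36 without slide 4. *Prmt1* A_55_P2021821 was 0.08 to 0.19 and *Sirt1* 0.08 to 0.26 without single arrays.

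The replicate numbers did not pair the samples: same-numbered Norm and Hypox arrays had correlations of -0.20 to 0.41, 3 of 12 over 0.1. With the replicate block, 4 member probes and 14 pathway genes passed, and *Chuk* stayed at -0.22 (P = 0.0164). On slides 1 and 2, *Foxo4* A_55_P2113026 was well above background on 0 of 8 arrays and A_55_P2150901 on 1 of 8.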
